A study of Anolis chlorocyanus and Anolis cybotes and Anolis osa with 24 samples.

Results

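The genes described here were moderately and consistently higher in leg muscle than in jaw muscle of male lizards of the genus Anolis. They were selected on the measured leg and jaw levels themselves, as the 240 genes, of 25920 in the deposited table, whose level was higher in leg in all 12 numbered pairs of libraries and whose mean difference was at least 1 and under 3. The difference is leg minus jaw on the log2(CPM + 1) scale, where CPM is the count scaled to a library total of 1000000, so these limits stand for 2-fold and 8-fold at levels well above 1 CPM. RNA sequencing had been done on whole leg and whole jaw muscle of 4 species, Anolis chlorocyanus, Anolis cybotes, Anolis osa and Anolis sagrei, with 3 leg and 3 jaw libraries for each. Each leg library shared a number in its title with a jaw library of its species, which made 12 numbers. Chlorocyanus had 04, 06 and 08, cybotes had 01, 03 and 08, osa had 04, 05 and 07, and sagrei had 15, 16 and 17. The labels name no treatment, genotype or age, and do not state whether a number stands for 1 animal.

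Leg and jaw muscle are both skeletal muscle, but limb muscle comes from the somites and jaw muscle from the mesoderm of the head. In many vertebrates they differ in the isoforms of their contractile proteins and in fibre types, and anoles use them for different tasks, running and jumping against biting. A whole muscle also holds connective tissue, tendon, vessels, nerve and blood, so a level measured in it is a mixture over cell types. In such bulk samples fewer cells of a type and less RNA per cell cannot be told apart. The deposited table gives genes as Ensembl-style identifiers and pairs them with no symbols. Functions, pathway lists and markers of muscle or of other cell types were therefore not analysed here. For the same reason, identifiers are printed for 2 genes only and other genes are given by rank, range and count.

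The direction of the difference was the criterion for membership and is no result. Of the 438 genes above 0 in 12 of 12 numbers, 48 had a mean difference of 3 or more and 150 had one under 1. A further 365 genes had a mean difference between 1 and 3 but were not above 0 in every number. At the lower limit, the 3 members nearest to it had mean differences of 1.002, 1.01 and 1.01, and the 3 genes just outside had 0.998, 0.997 and 0.994. At the upper limit, members reached 2.97, 2.91 and 2.90, and the genes just outside started at 3.01, 3.02 and 3.04. The smallest single difference of a member was 0.000395, in osa 07, and 30 members had a smallest difference under 0.1. The limits thus cut through a continuous range of values.

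Total counts were 1471495 to 1962685 in leg libraries and 1315319 to 1797467 in jaw libraries. Together the 240 genes took up 1.94% ± 0.505 of a leg library and 0.554% ± 0.135 of a jaw library (mean ± SD, n = 12 each). The lowest, median and highest shares were 1.12%, 1.88% and 2.68% in leg, and 0.411%, 0.504% and 0.776% in jaw. The groups did not overlap, a direction that the choice of genes fixes. All 240 were detected in every leg library, again by the rule, since a difference above 0 requires a count in leg. Jaw libraries detected 200 to 221 of them, with a median of 213.

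**Figure D1:**
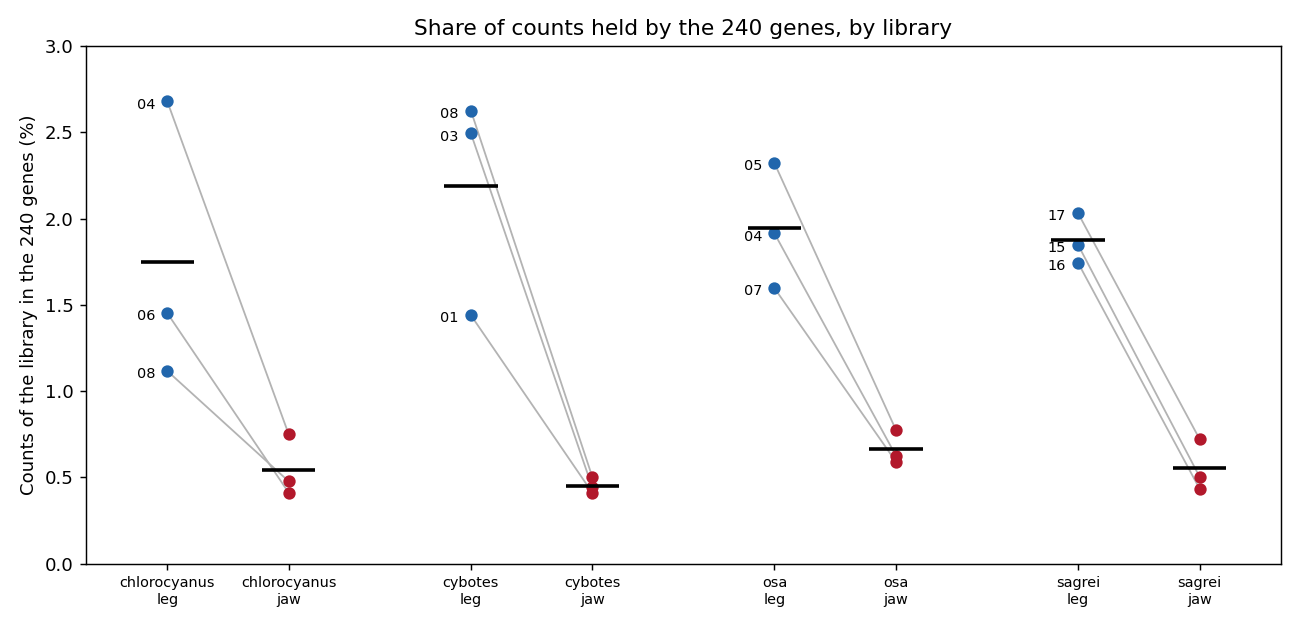
Share of each library's counts (%) held by the 240 genes, in leg (blue) and jaw (red) libraries of each species. Grey lines join libraries of the same title number, which is printed beside the leg point, and black bars are means of 3. Leg shares ran from 1.12% to 2.68% and jaw shares from 0.411% to 0.776%.

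The leg share varied more among the numbers of some species than of others. In chlorocyanus it was 2.68% in number 04, 1.45% in 06 and 1.12% in 08, against 0.749%, 0.411% and 0.477% in jaw. In cybotes it was 1.44% in 01, 2.49% in 03 and 2.62% in 08, against 0.411%, 0.442% and 0.503% in jaw. The osa leg libraries held 1.91% in 04, 2.32% in 05 and 1.60% in 07, against 0.626%, 0.776% and 0.592% in jaw. Sagrei was the most even species in leg, at 1.85% in 15, 1.74% in 16 and 2.03% in 17, against 0.505%, 0.435% and 0.724% in jaw. By the exact binomial (Clopper-Pearson) interval, which covers counting error only, the 95% range of the highest share, that of chlorocyanus 04 leg, was 2.65% to 2.70%. Counting error was therefore small beside the spread between libraries of a group.

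A few genes made up much of the leg share. The 5 most abundant members in leg held 33.1% ± 10.04 of the members' leg counts (SD, n = 12), with a range over leg libraries of 15.9% to 57.2%. Without them the share was 1.27% ± 0.286 in leg and 0.419% ± 0.0918 in jaw. At the other end, 8 members had 0 counts in all jaw libraries, 20 had 0 counts in at least 6 of them, and 86 had 0 counts in at least 1. A count of 0 in a jaw library allows up to 3 counts, so differences and fitted fold changes of these genes depend on the pseudocount or prior count.

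Most members were of low to middle abundance. The median member averaged 27.0 CPM over leg libraries and 7.67 CPM over jaw libraries, with ranges of 1.59 to 2384 CPM in leg and 0 to 471 CPM in jaw. By the mean over all 24 libraries, 80 members were under 10 CPM, 137 were between 10 and 100 CPM, and 23 were at 100 CPM or more. As a share of the genes with any count in the same class, these were 0.732% of 10934 genes, 2.70% of 5065 genes and 1.87% of 1233 genes. Membership was thus least frequent among rare genes, where 62 of the 80 members had 0 counts in at least 1 jaw library. How far depth limits the share of genes below 10 CPM that can keep 1 sign in 12 pairs was not tested.

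Within the set, the median of the mean differences was 1.48 in the lowest class, 1.49 in the middle class and 1.90 in the highest. The lower classes were thus alike, and the 23 most abundant members had larger differences. The median smallest difference over the 12 numbers was 0.371, 0.407 and 0.714 in the same order. The pseudocount of 1 CPM pulls the differences of rare genes toward 0, so values near the bottom of the scale understate the ratio. With a pseudocount of 5, 164 genes met the rule and 135 of them were among the 240.

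**Figure D2:**
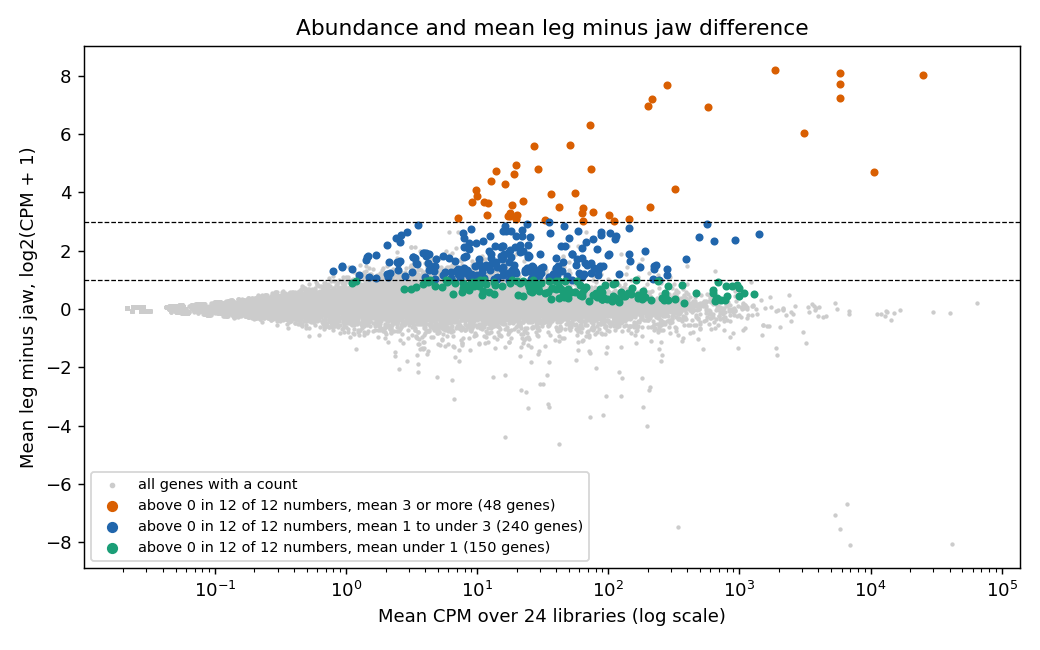
Mean leg minus jaw difference (log2(CPM + 1), mean of 12 numbers) against mean CPM over 24 libraries (log scale) for all genes with a count. The 240 members (blue) lie between the dashed lines at 1 and 3, with 80 of them under 10 CPM and 23 at 100 CPM or more; the 48 genes at 3 or more (orange) and the 150 genes under 1 (green) are also above 0 in 12 of 12 numbers.

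Single differences of a member spread widely around its mean. The SD of the 12 differences had a median of 0.776 over members and ranged from 0.368 to 2.11. The smallest of a member's 12 differences had a median of 0.41 and the largest a median of 3.06. In 34 members all 12 differences were at least 1, and in 131 at least 1 difference was 3 or more. Leg and jaw levels overlapped across libraries in 224 members, although each was higher in leg in every number. The lowest leg library stood above the highest jaw library in 16 members. Among the 217 members that passed a low-count filter (edgeR's filterByExpr over the 8 groups) this held for 8, against 0.482% of the 9123 genes that passed it. Because the rule chose genes on this contrast, nothing is read from that difference.

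In edgeR's quasi-likelihood test of leg against jaw over the 4 species, 205 of the 217 members tested passed an adjusted p of 0.05 (Benjamini-Hochberg), all higher in leg. Over all genes tested, 6.58% were called higher. A fit with the title number as a block called 217 of 217, against 13.3% of all genes tested. These counts use the same contrast as the rule, and a member can pass the low-count filter through its leg libraries alone. They are given as a description and test nothing further.

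The median difference of the members was largest in 2 of the 3 cybotes numbers. Chlorocyanus 04, 06 and 08 had medians of 1.29, 1.44 and 1.16, and cybotes 01, 03 and 08 had 1.44, 2.20 and 2.12. In osa 04, 05 and 07 it was 1.61, 1.48 and 1.35, and in sagrei 15, 16 and 17 it was 1.67, 1.57 and 1.29. Cybotes 01 stood within the range of the other species, while cybotes 03 and 08 stood above every other number. The largest of a member's 12 differences was in cybotes 08 for 59 members and in cybotes 03 for 58, and in no other number for more than 20. The smallest was in chlorocyanus 08 for 55 members and in no other number for more than 24. The matching counts over all genes are not given here, so nothing particular to the members is read from these.

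Other genes also differed more in those cybotes numbers. The median absolute difference over the 9123 genes passing the filter was 0.525 in cybotes 03 and 0.551 in cybotes 08, against 0.358 to 0.451 in the other 10 numbers. The signed median over those genes was 0.40 in cybotes 03 and 0.17 in cybotes 08, and -0.05 to 0.21 elsewhere. Taken relative to that median, the members' median was 1.80 in cybotes 03, 1.95 in cybotes 08, and 1.11 (chlorocyanus 08) to 1.54 (sagrei 15) in the others. The part of library composition in the members' differences was not tested.

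**Figure D3:**
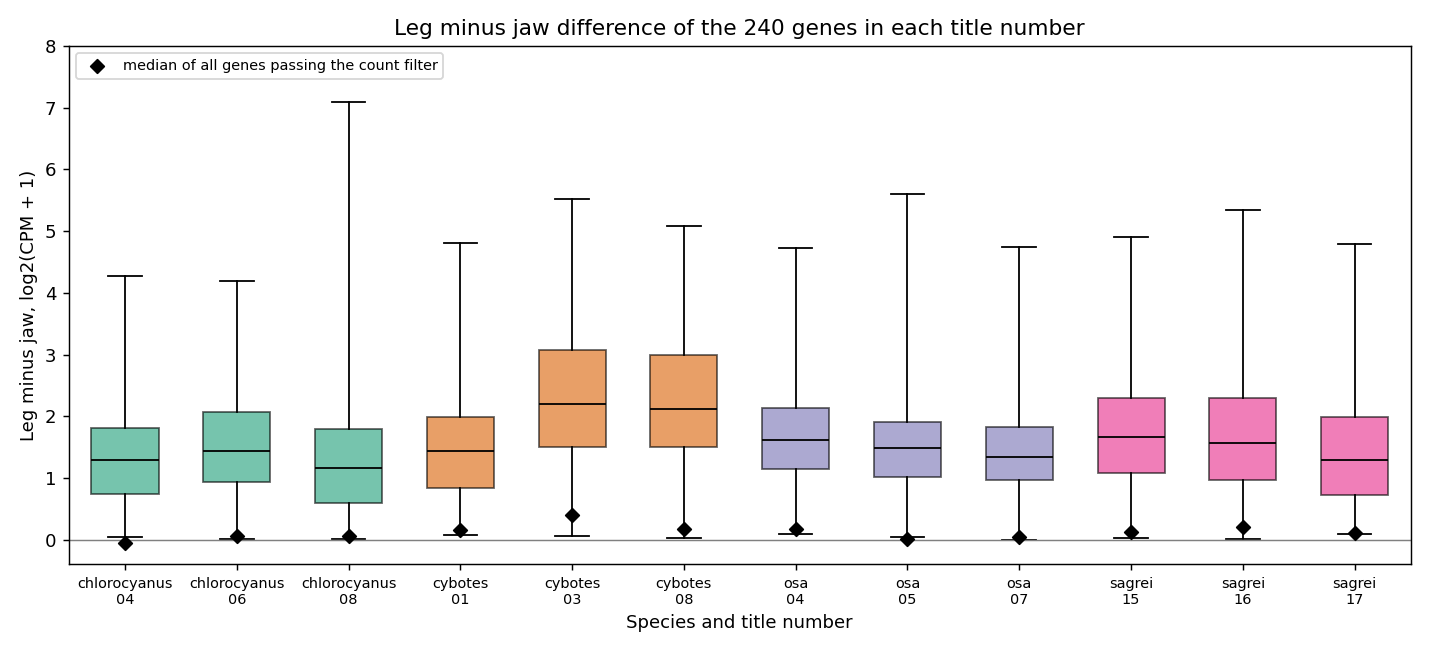
Leg minus jaw difference (log2(CPM + 1)) of the 240 genes in each of the 12 title numbers. Boxes show the quartiles and median, whiskers the full range, and black diamonds the median over the 9123 genes passing the count filter; the member medians of cybotes 03 (2.20) and 08 (2.12) are above those of the other 10 numbers (1.16 to 1.67).

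Averaged within a species, the members' differences had a median of 1.93 in cybotes, 1.55 in sagrei, 1.50 in osa and 1.25 in chlorocyanus. Over all genes passing the filter the corresponding medians were 0.25, 0.16, 0.08 and 0.03, in the same order of species. Cybotes had the largest of the 4 species means for 134 members, sagrei for 47, osa for 32 and chlorocyanus for 27. Chlorocyanus had the smallest for 99 members, osa for 59, sagrei for 50 and cybotes for 32. A difference of at least 1 was reached in all 4 species by 108 members, in 3 species by 82, in 2 by 44 and in 1 by 6. Without the cybotes numbers, 212 members still had a mean difference of at least 1. The rule asks for a positive difference in every number, so species can differ only within that bound and these orders are descriptions.

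Whether the leg minus jaw difference itself varied among species was fitted as the interaction of muscle and species, with 3 degrees of freedom. In edgeR's quasi-likelihood test without a term for the title number, 0 of 217 members passed an adjusted p of 0.05, against 0.011% of all genes tested. DESeq2 called 2 members, against 39 of all 9123 genes tested. In the edgeR test 19 members had an unadjusted p under 0.05. The matching share of all genes at that limit is not given here, so nothing is read from the 19. With the title number as a block, 16 of 217 members passed, or 7.37%, against 2.98% of all genes tested. Among these 16, the largest leg term was in cybotes for 9 members, in sagrei for 5 and in chlorocyanus for 2. The smallest was in chlorocyanus for 6, in sagrei for 4, and in osa and cybotes for 3 each. For these terms too, the matching counts over all genes called are not given, and nothing is read from them. The blocked count was 38 of 224 members without cybotes 01, against 484 of all 9642 genes tested. Without cybotes 08 it was 10 of 222 members, against 198 of 9585 genes. Since the rule used the differences that this fit compares, the counts are not a test of the set.

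ENSACAG00000002927 was the most abundant member in leg. Its leg levels were 1889, 2301 and 1125 CPM in chlorocyanus 04, 06 and 08, against 300.4, 226 and 157 CPM in jaw. In cybotes 01, 03 and 08 they were 1983, 1932 and 2829 CPM, against 523, 764 and 1007 CPM in jaw. Osa 04, 05 and 07 had 2232, 3560 and 1955 CPM in leg, against 396, 406 and 266 CPM in jaw. In these 3 species the highest jaw values were those of cybotes. Sagrei 15, 16 and 17 had 3095, 3437 and 2271 CPM in leg, against 478, 385 and 258 CPM in jaw. All 12 leg libraries stood above all 12 jaw libraries, the nearest being chlorocyanus 08 in leg and cybotes 08 in jaw.

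The jaw level set cybotes apart for this gene. The mean difference was 1.58 in cybotes, against 2.94 in chlorocyanus, 2.83 in osa and 2.99 in sagrei, so that its cybotes difference was the smallest although most members had their largest there. Over jaw libraries alone, species differed for this gene (edgeR adjusted p = 0.00576), and the 3 cybotes jaw libraries stood above the other 9. Of all genes tested, 42.6% passed that test in jaw. Over leg libraries alone the adjusted p was 0.538, and over sums of both muscles it was 0.350. When title numbers were blocked, the interaction of muscle and species passed (edgeR adjusted p = 0.00661), with leg terms of 1.30 in cybotes, 2.93 in chlorocyanus, 2.74 in osa and 2.83 in sagrei on the log2 scale. Leaving out both libraries of any 1 number, the blocked adjusted p ran from 0.00310 to 0.0411. The rule used these same leg minus jaw differences, so the blocked values are a description and no test of the gene. Without the block the adjusted p was 1.

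The next 4 members by leg level formed 2 pairs with like patterns over the libraries, though only in part for ranks 2 and 4. Rank 3 had a lowest, median and highest level of 47.4, 506 and 6697 CPM in leg, against 14.5, 81.4 and 775 CPM in jaw. Rank 5 had 36.2, 486 and 3801 CPM in leg, against 6.12, 71.4 and 429 CPM in jaw. For both, chlorocyanus 04 held the highest value and chlorocyanus 08 the lowest, in leg and in jaw alike. Within cybotes both had their highest leg value in number 08, at 2221 and 2132 CPM, and their lowest in 01, at 115 and 92.7 CPM. In osa they were highest in 05, at 1235 and 1388 CPM, and lowest in 07, at 89.8 and 120 CPM.

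Ranks 2 and 4 followed another course. Rank 2 had 440.2, 1175 and 3733 CPM in leg as its lowest, median and highest value, against 2.23, 467 and 1114 CPM in jaw. Rank 4 had 128, 814 and 2431 CPM in leg, against 0.556, 166 and 375 CPM in jaw. Both were highest in leg in cybotes 03 and lowest in chlorocyanus 08, in leg and in jaw. Their largest differences were 7.10 and 6.37 in chlorocyanus 08, where jaw held 4 counts of rank 2 and 1 count of rank 4, and then 4.27 and 4.76 in sagrei 16. In osa 05 rank 2 stood at 1171 CPM in leg and 1037 CPM in jaw, a difference of 0.17, against 1.38 for rank 4. Outside cybotes their highest leg libraries within a species were not the same. Rank 2 was highest in chlorocyanus 06, osa 05 and sagrei 17, and rank 4 in chlorocyanus 04, osa 07 and sagrei 15. These pairs were picked out after their values were seen and are not tested.

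**Figure D4:**
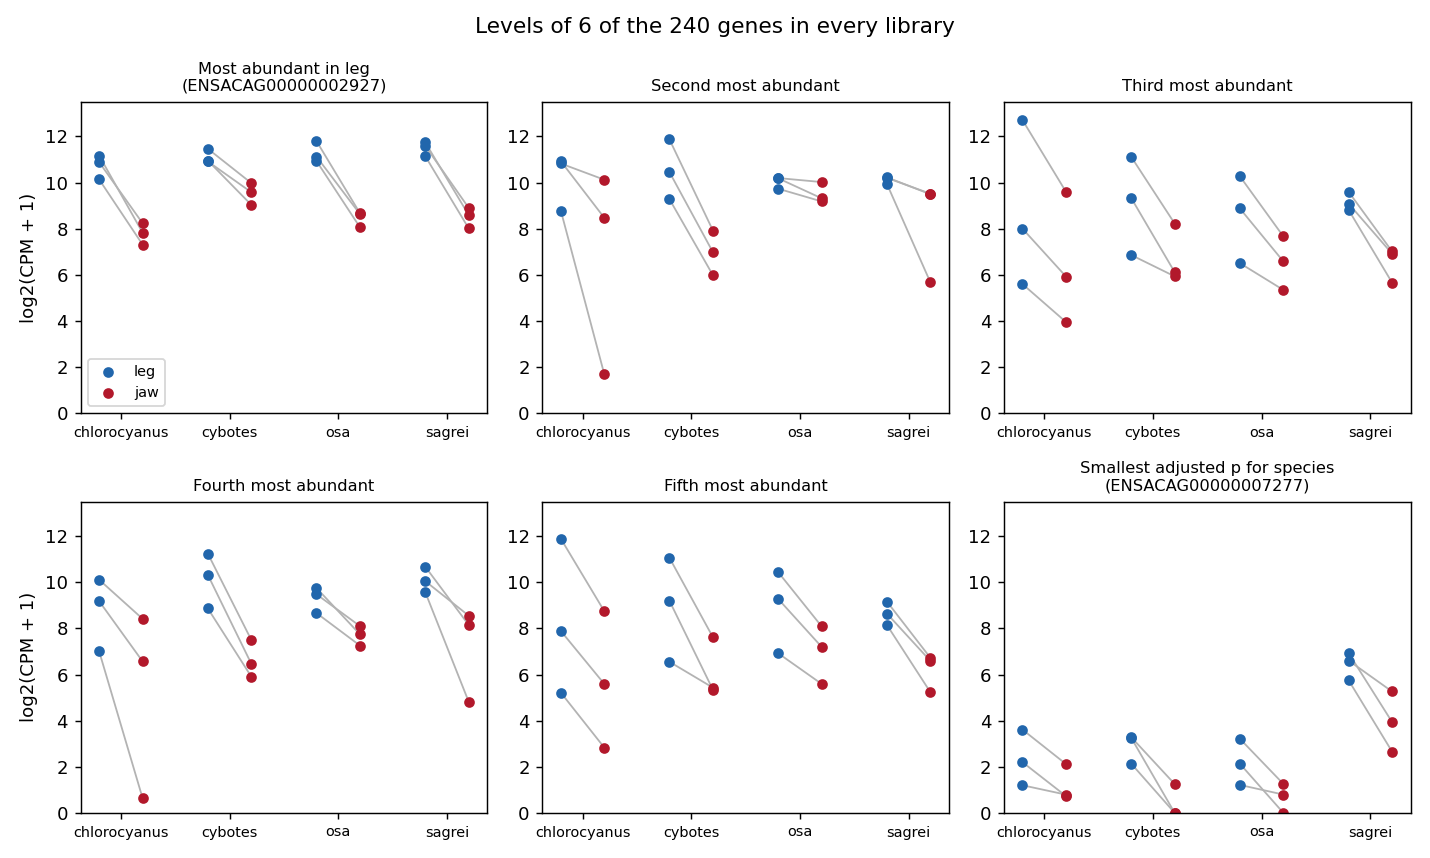
Levels (log2(CPM + 1)) of the 5 members most abundant in leg and of the member with the smallest adjusted p for species, in every leg (blue) and jaw (red) library of each species; grey lines join libraries of the same title number. Ranks 3 and 5 share their highest (chlorocyanus 04) and lowest (chlorocyanus 08) libraries, and ENSACAG00000007277 is highest in sagrei.

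The level of many members went with the title number in both muscles. Within a species, the number with the highest leg level also had the highest jaw level in 58.6% of 868 combinations of member and species. The same held for 54.7% of combinations over all 9123 genes passing the filter, so such a link was about as frequent over all genes. The numbers that led were uneven for members. Among the 3 chlorocyanus leg libraries, 04 was highest for 133 of 217 members (61.3%, against 37.2% of all genes) and 08 was lowest for 151 (69.6%, against 39.2%). In chlorocyanus jaw, 04 was highest for 127 (58.5%, against 38.4%). In cybotes leg, 08 was highest for 137 (63.1%, against 33.9%) and 01 lowest for 120 (55.3%, against 36.1%).

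These levels were scaled by TMM factors, which were 0.825 in leg and 0.845 in jaw of chlorocyanus 04, and 1.32 in leg and 1.30 in jaw of chlorocyanus 08. A low factor raises a library's scaled values. Without that scaling the order was the same, with a median member at 20.4, 16.1 and 12.2 CPM in leg of chlorocyanus 04, 06 and 08, against 6.20, 5.91 and 4.45 CPM in jaw. In cybotes 01, 03 and 08 the median member stood at 18.1, 29.9 and 32.6 CPM in leg, against 4.83, 4.08 and 5.11 CPM in jaw. High leg medians were not limited to cybotes, since osa 04 and 05 had 29.9 and 27.4 CPM in leg, against 8.06 and 8.19 CPM in jaw. The jaw median of cybotes 03 was the lowest of the 12 jaw libraries, and the 3 cybotes jaw libraries averaged 4.67 CPM, against 7.73 CPM in osa, 6.63 CPM in sagrei and 5.52 CPM in chlorocyanus. The part of composition in these levels was not tested.

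Differences between species were not the contrast of the rule. They were tested on leg and jaw counts summed within each title number, with 3 sums per species. Reads of all species were counted on shared identifiers. In every comparison of species levels, a sequence difference that changes mapping therefore cannot be told apart from a difference in expression. In edgeR's quasi-likelihood test, 81 of the 224 members tested (36.2%) passed an adjusted p of 0.05, against 43.9% of all 9908 genes tested. The members' share was below that of all genes. The rule requires a count in every leg library, so a gene absent from leg of any species cannot be a member. How far this bears on the lower share was not tested, and nothing is read from it. Over leg libraries alone 72 of 219 members passed (32.9%, against 33.5% of all genes), and over jaw libraries alone 53 of 151 (35.1%, against 42.6%). Among the 151 members tested in both muscles, 32 were called in both. These were 59.3% of the 54 called in leg and 60.4% of the 53 called in jaw. The matching overlap over all genes is not given here, so nothing particular to the members is read from it. With the leg and jaw log2 CPM of a number averaged and tested with limma, 72 of 217 passed (33.2%, against 45.3%). By abundance, 17 of 64 tested members under 10 CPM were called (26.6%, against 43.7% of all genes in that class), 59 of 137 between 10 and 100 CPM (43.1%, against 46.6%), and 5 of 23 at 100 CPM or more (21.7%, against 33.3%).

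Each species was then set against the mean of the other 3 in the same fit, and these 4 comparisons share their sums. Set against the other species, chlorocyanus had 12 members higher and 32 lower, against 14.6% and 10.1% of all genes tested. In cybotes 27 were higher and 9 lower (against 10% and 7.97%), in osa 23 and 16 (against 11.2% and 8.35%), and in sagrei 18 and 3 (against 8.32% and 5.72%). As shares of the members tested, chlorocyanus had 5.36% higher and 14.3% lower, cybotes 12.1% and 4.02%, osa 10.3% and 7.14%, and sagrei 8.04% and 1.34%. In chlorocyanus lower calls outnumbered higher ones, whereas over all genes higher calls were the more frequent. In cybotes and sagrei higher calls outnumbered lower ones both in the members and over all genes, and the members' share of higher calls was near that of all genes. The counts fell when some single numbers were left out, and so did those over all genes tested. The total for chlorocyanus was 44, and 24 without chlorocyanus 06, against 2456 and 1536 over all genes. For osa it was 39, and 19 without osa 04 or 22 without osa 05, against 1940, 1065 and 1193. For sagrei it was 21, and 6 without sagrei 15 or 12 without sagrei 16, against 1391, 797 and 763. Without chlorocyanus 04 the members' totals were higher instead, at 61 in chlorocyanus, 48 in cybotes (36 with all numbers), 51 in osa and 24 in sagrei. Over all genes tested they were then 2386, 2049, 2167 and 1494 in the same order.

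In cybotes the share of members called higher was above that of all genes in leg (11%) and below it in jaw (5.96%). Over leg alone, 24 of 219 members tested were higher and 8 lower in cybotes (against 7.1% and 5.25% of all genes tested). Over jaw alone, where only 151 members were tested, 9 were higher and 7 lower (against 11.6% and 7.79%). A sum over both muscles weighs leg more heavily for genes that are higher there. In the limma test of averaged log2 CPM, 10 of 217 members were higher and 8 lower in cybotes (4.61% and 3.69%, against 9.54% and 10.2% of all genes). Without cybotes 03 the sums gave 11 higher and 5 lower, and without cybotes 08 they gave 6 and 4. Over all genes tested, calls in either direction also fell, from 1783 with all numbers to 926 without cybotes 03 and 975 without cybotes 08. Without cybotes 01 they fell to 1100, while the members had 25 higher and 4 lower. The number of higher calls among the members thus differed with the muscle and with the numbers kept. Numbers 03 and 08 were also those with the largest leg minus jaw differences. How far fewer replicates account for the drop was not tested.

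In chlorocyanus lower calls also outnumbered higher ones in the 3 other settings. Leg alone gave 8 higher and 28 lower (3.65% and 12.8% of members tested, against 12.3% and 7.63% of all genes). Jaw alone gave 14 and 16 (9.27% and 10.6%, against 12.7% and 8.66%), and averaged values 11 and 32 (5.07% and 14.7%, against 12.7% and 12.3%). Osa had its largest share of higher calls in jaw, with 25 higher and 7 lower (16.6% and 4.64%, against 11.1% and 8.3%). It had 16 and 9 in leg (7.31% and 4.11%, against 6.68% and 4.66%) and 28 and 12 in averaged values (12.9% and 5.53%, against 11.1% and 10.1%). Sagrei had 11 higher and 2 lower in leg (5.02% and 0.913%, against 5.57% and 3.31%). In jaw it had 11 and 4 (7.28% and 2.65%, against 6.76% and 5.18%), and in averaged values 13 and 5 (5.99% and 2.3%, against 7.23% and 8.18%). In leg, the higher calls of osa (7.31% of members tested) and sagrei (5.02%) were thus near the shares of all genes, while chlorocyanus had 3.65% higher and 12.8% lower.

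**Figure D5:**
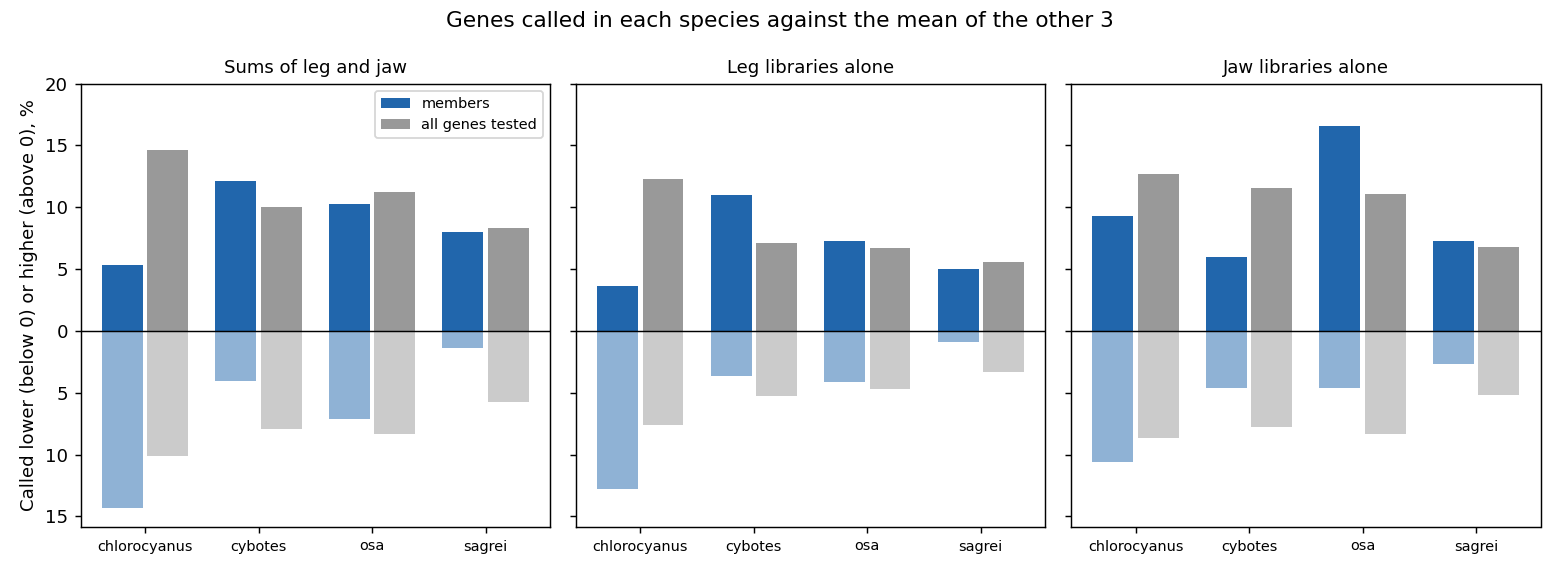
Percent of members (blue) and of all genes tested (grey) called higher (above 0) or lower (below 0, pale) in each species than in the mean of the other 3, by edgeR at an adjusted p of 0.05, in sums of both muscles, leg alone and jaw alone. In cybotes 12.1% of members were called higher in the sums, 11% in leg and 5.96% in jaw.

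ENSACAG00000007277 had the smallest adjusted p for species among the members and was picked for it. In sagrei 15, 16 and 17 it stood at 96.5, 53.0 and 121 CPM in leg, against 37.4, 5.32 and 14.4 CPM in jaw. In chlorocyanus 04, 06 and 08 it had 1.29, 3.59 and 11.2 CPM in leg, against 0.729, 0.657 and 3.34 CPM in jaw. In cybotes 01, 03 and 08 it had 8.74, 8.55 and 3.40 CPM in leg, against 1.38, 0 and 0 CPM in jaw. The sagrei leg libraries stood above every library of the other species. In osa 04, 05 and 07 it had 1.32, 3.38 and 8.28 CPM in leg, against 0.733, 0 and 1.39 CPM in jaw. The log2 fold change of sagrei against the mean of the other 3 was 4.14 (SE 0.41) in the sums, and the adjusted p for species was 0.000112 by edgeR. Over the other settings that tested this gene, the adjusted p ran from 1.23e-17 (DESeq2) to 0.000584 (edgeR, 1 number left out). It was not tested over jaw libraries alone, where it did not pass the low-count filter. Outside sagrei its libraries held at most 22 counts, and reads of all species were counted on shared identifiers, so a sequence difference that changes mapping cannot be told apart from a difference in expression.

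Beside the other genes above 0 in 12 of 12 numbers, the members were less abundant. The median member averaged 17.4 CPM over 24 libraries, against 46.5 CPM for the 48 genes with a difference of 3 or more, 45.7 CPM for the 150 genes under 1, and 19.0 CPM for all genes passing the filter. The 48 genes took up 12.01% ± 2.51 of a leg library (mean ± SD, n = 12), against 1.94% for the 240 members. In leg the larger number of members thus did not give a larger share of the counts. In jaw the members held more, at 0.554% against 0.218% ± 0.129 for the 48 genes (mean ± SD, n = 12). Spread between replicates was high in the members, with a median biological coefficient of variation of 0.453 in edgeR's fit, against 0.458 for the 48 genes, 0.293 for the 150 and 0.324 for all genes tested. The cybotes difference was the largest of the 4 species for 55.8% of the members, 22.9% of the 48 genes and 51.3% of the 150. The same was so for 36.04% of all genes passing the filter, taking the largest absolute difference. These sets were cut from 1 ranking, and no difference between them was tested.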

How the data were processed

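RNA sequencing libraries of leg and jaw muscle from males of 4 Anolis species were analysed, 24 in 8 groups of 3. Trizol was used to extract total RNA from the whole muscle and BGI made the libraries, per the labels' protocols. STAR, a read aligner, is named in the submitters' processing notes. Not given in the sources used here are the genome build, annotation, counting program and strand setting. The authors deposited raw counts, not normalized, in 1 table, and all 24 columns were used. Totals were 1315319 to 1962685 counts per library, which limits rare genes.

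CPM by column total and log2(CPM + 1) defined the members. The members and all lists and tests were chosen with earlier results of these data known. Fits ran on the whole table in edgeR 4.0.16 (R 4.3.3), with filterByExpr, TMM scaling, the quasi-likelihood test and Benjamini-Hochberg adjustment at 0.05. filterByExpr over the 8 groups kept 9123 genes and 217 of the 240 members; 23 did not pass. For species, 9908 genes and 224 members were tested, and 16 members were not. Log2 CPM for the averages in limma 3.58.1 used a prior count of 2. On total-count scaling the median leg minus jaw difference of all tested genes was 0.14 higher on the log2 scale than with TMM.

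Whether title numbers pair the libraries was checked by correlating deviations from group means. Leg and jaw libraries of 1 number correlated at 0.295 to 0.740, and each leg library correlated at most at 0.0461 with jaw libraries of other numbers. Deviations cancel within a group, so a high correlation at 1 number lowers those with the other numbers of its species. The gap between the ranges is therefore partly set by the centring. The numbers were taken to pair the libraries, as read from the data. Replicates differed beyond sampling noise in all 24 pairs (chi-square per degree of freedom 8.57 to 72.0). Nothing in the labels says that replicates are separate animals, so p-values reflect only the spread among these libraries, which may be technical. The unblocked edgeR fits of leg against jaw and of osa against the other species were tested on simulated counts with 1 fixed spread and no pairing. The blocked, interaction, limma and DESeq2 fits were not tested this way. Intervals cover counting error only, since without molecular identifiers reads do not count independent molecules. Named genes were the most abundant member in leg and the member with the smallest adjusted p for species; marker lists could not be matched and were not analysed here. Alternatives included DESeq2 1.42.0 and limma voom.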

Additional observations from a re-analysis of the deposited data

Results flagged for a closer look

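When the title number was a block, 16 of 217 members (7.37%) passed an adjusted p of 0.05 in edgeR's fit of the interaction of muscle and species, against 2.98% of all genes tested. Without the block 0 members passed. The members were chosen on the same leg minus jaw differences. This count and the adjusted p of single members are therefore descriptions and no test. The blocked count was 10 to 38 when both libraries of 1 number were left out, against 150 to 484 over all genes tested. ENSACAG00000002927, the most abundant member in leg, was among the 16 (edgeR adjusted p = 0.00661, 0.00310 to 0.0411 with 1 number left out), with a mean difference of 1.58 in cybotes and 2.83 to 2.99 in the other species. No group of 4 to 10 libraries exists here, so single libraries were not screened as outliers.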

How the results depend on the processing

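The counts of members called for leg against jaw were 190 to 238 over the alternative runs, and 194 to 213 with 1 library left out. All were within 1.5 times the value reported. The 190 were of 217 members with limma voom, against 928 of 9123 genes called in either direction. The 238 were of 240 members with no low-count filter, against 1227 of 17232 genes. Blocking by title number called 217 of 217 members, against 2265 of 9123 genes. Since the rule chose the members on this same contrast, the steadiness of these counts tests nothing. For the interaction, the blocked count was 16, against 0 without the block. The interaction count was 2 with DESeq2 and with no low-count filter, against 39 and 75 over all genes tested. It was 0 to 1 with 1 library left out. With the block it was 10 to 38 with 1 number left out, against 150 to 484 over all genes tested. The block changed the call for the interaction of ENSACAG00000002927 and no other call of the 2 named genes. The number of genes meeting the rule was 164 to 247 under other pseudocounts, scalings and the filter. With TMM-scaled library sizes it was 199, of which 194 were members, and it was 235 to 283 with 1 number left out. For species, the count was 53 of 151 members over jaw alone, where fewer members were tested, against 3327 of 7805 genes. Over the other settings with no number left out it was 72 to 105. The 72 were of 219 members over leg alone and of 217 with averaged log2 values, against 2867 of 8568 and 4129 of 9123 genes. The 105 were of 240 members with no low-count filter, against 5508 of 17232 genes. With 1 number left out the members' count was 59 (without chlorocyanus 06) to 106 (without chlorocyanus 04), against 3675 and 4784 over all genes. For single species against the other 3, it was 24 to 61 in chlorocyanus, 10 to 48 in cybotes, 19 to 51 in osa and 6 to 29 in sagrei with 1 number left out (22 without osa 05, 12 without sagrei 16). Calls over all genes tested fell in some of these runs and rose in others. For cybotes they were 1783 with all numbers, 975 without cybotes 08 (10 members) and 2049 without chlorocyanus 04 (48 members). In cybotes the members' count was 16 of 151 tested over jaw alone, against 1514 over all genes tested. With averaged log2 values it was 18 of 217, against 1804 over all genes. Over leg alone it was 25 in osa and 13 in sagrei, of 219 members tested, against 971 and 761 over all genes. In the sums the counts over all genes were 1783 in cybotes, 1940 in osa and 1391 in sagrei. The cause was not tested. Without the 5 most abundant members the share of counts was 1.27% in leg and 0.419% in jaw, and relative to totals without the 20 most abundant genes it was 3.01% and 0.884%. With 1 library left out it was 1.87% to 2.01% in leg and 0.534% to 0.567% in jaw. Depth limits the 86 members with a count of 0 in some jaw library.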

Other observations

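Genes that missed the rule in 1 number only were unevenly placed. Of the 365 genes with a mean difference in range that were not members, 160 were above 0 in all but 1 number. The number they failed in was chlorocyanus 08 for 34 genes, chlorocyanus 06 for 22, osa 07 for 18 and chlorocyanus 04 for 17. It was cybotes 03 for 3 genes, osa 04 for 5, and cybotes 08 and sagrei 15 for 8 each. Without chlorocyanus 08 the rule over the other 11 numbers found 283 genes, of which 236 were among the 240, and without cybotes 03 it found 235, of which 226 were.

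The mirror set, 58 genes lower in leg in 12 of 12 numbers by a mean of 1 to under 3, took up 0.733% ± 0.110 of a leg library and 1.87% ± 0.215 of a jaw library (mean ± SD, n = 12 each). Its largest absolute difference was in cybotes for 27.6% of genes, against 55.8% of the 240 genes higher in leg. Both sets were chosen on these differences, and the comparison was not tested.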
